A study of Mus musculus with 8 samples.

Results

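The collagen chains are the 44 genes whose name on the array is Col, a type number, the letter a and a chain number. They were found by that pattern among the non-control probes, and they are read by 91 of 56605 probes and stand among 37325 gene names. No value of an array entered that pattern, but the family was chosen with earlier results of these data known. The study put lead acetate into the drinking water of male mice for 3 weeks and measured gene expression in pieces of brain, kidney and liver. The groups are brain and kidney of control mice given distilled water, of low dose mice given 100 mg/L and of high dose mice given 1000 mg/L, and liver of control and high dose mice. Each of these 8 groups is a single array, and the labels give neither strain nor age, and do not tie a sample to an animal.

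Collagens are the structural proteins of the extracellular matrix. Their polypeptide chains wind into a helix of several strands, and the genes differ in what that helix builds. Fibrillar chains (types I, II, III, V, XI, XXIV and XXVII) form the rope-like fibrils of connective tissue. Type IV chains form the sheet of basement membranes, and in the kidney a particular set of them makes the filter wall of the glomerulus. Type VI builds beaded filaments around cells, type VII anchors epithelium, and types VIII and X form hexagonal lattices. Fibril-associated chains sit on the surface of fibrils, transmembrane chains are anchored in the cell membrane, and the multiplexins XV and XVIII lie in basement membrane zones. In kidney and liver, fibrillar collagen is the material of scar tissue, made mainly by fibroblasts and stellate cells, and in brain it is sparse outside meninges and vessels.

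All values are log2 levels, that is, the log2 processed signal of a probe minus the 75th percentile of its array, so 0 is that percentile. A probe that the scanner software does not mark as well above background is called dim. Of all spots, 64.0% to 67.1% were well above background on the brain arrays, 58.5% to 61.0% on the kidney arrays and 53.4% to 54.0% on the liver arrays. The 75th percentile itself was 919 to 954 units of signal in brain, 729 to 782 in kidney and 427 to 435 in liver, so a dim probe has a higher level in liver than in brain without any signal of its own. A dim probe therefore gives only a bound, written "at least", and no level was set against that of another probe. All 8 brain, all 8 kidney and all 8 liver marker genes were higher in their own tissue than in both other tissues, by the test described with the tissue comparisons.

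The stretches of DNA in front of a few of these genes are printed because the genes stand for the patterns described afterwards. They are Col3a1, higher in kidney and liver than in brain, Col1a2, higher in kidney than in brain, Col18a1, of the largest tissue difference among chains measured on all arrays, and Col9a2 of the chains brighter in brain. Each is the 250 bases before the gene's start, read from 5′ to 3′ on the strand of the gene, from RefSeq on GRCm38.p6. The positions are chr6:4505368-4505617 (plus strand) for Col1a2, chr1:45311288-45311537 (plus strand) for Col3a1, chr10:77166531-77166780 (minus strand) for Col18a1 and chr4:121039316-121039565 (plus strand) for Col9a2. Capitals mark CCAAT boxes, matches to the Sp1-type letters GGGCGG and matches to the letters TATAAA, each searched on both strands. No match shares letters with another in the stretches shown.
Col1a2: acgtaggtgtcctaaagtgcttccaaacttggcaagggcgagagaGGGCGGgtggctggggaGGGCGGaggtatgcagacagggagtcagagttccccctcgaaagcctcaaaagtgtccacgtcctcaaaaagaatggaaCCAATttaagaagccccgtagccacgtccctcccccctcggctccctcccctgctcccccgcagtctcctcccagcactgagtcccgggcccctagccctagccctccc
Col3a1: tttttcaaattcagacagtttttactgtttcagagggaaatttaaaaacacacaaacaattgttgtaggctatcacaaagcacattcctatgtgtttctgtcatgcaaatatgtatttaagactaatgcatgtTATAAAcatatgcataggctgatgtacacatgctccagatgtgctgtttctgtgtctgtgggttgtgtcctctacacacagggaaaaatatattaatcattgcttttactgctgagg
Col18a1: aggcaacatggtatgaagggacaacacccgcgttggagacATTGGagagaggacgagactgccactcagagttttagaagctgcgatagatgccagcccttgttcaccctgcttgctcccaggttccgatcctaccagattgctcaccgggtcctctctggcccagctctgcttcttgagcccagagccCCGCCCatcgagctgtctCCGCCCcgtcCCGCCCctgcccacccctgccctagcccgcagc
Col9a2: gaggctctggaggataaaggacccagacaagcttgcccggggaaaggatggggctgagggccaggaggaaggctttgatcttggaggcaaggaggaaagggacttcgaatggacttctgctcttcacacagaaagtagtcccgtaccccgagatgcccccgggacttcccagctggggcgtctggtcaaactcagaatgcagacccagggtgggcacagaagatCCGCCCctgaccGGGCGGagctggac

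The Col1a2 window holds 1 CCAAT and 2 GGGCGG, the printed Col18a1 window 1 and 3, the Col9a2 window 2 GGGCGG, and the Col3a1 window 1 TATAAA and neither of the others. A second Col18a1 window, at chr10:77113706-77113955 within the gene body, holds none of these letters and is not shown. Which start each tissue uses was not tested. The RefSeq table held 38 such windows for 35 of the 44 genes, some of which overlap. It had no entry for Col1a1, Col2a1, Col4a3, Col5a2, Col9a3, Col12a1, Col14a1, Col22a1 and Col26a1. CCAAT stood in 34.2% of the collagen windows and in 33.8% of all 32851 windows of that length, GGGCGG in 57.9% and 32.7%, and TATAAA in 13.2% and 12.4%. These are matches of letters, with no test. Col4a1 and Col4a2 lie head to head, and their starts in that table are so close that they overlap by 22 bases, at chr8:11312805-11312826. That stretch is shown, on the plus strand and with its GGGCGG in capitals, since these 2 genes had nearly the same pattern over the arrays.
Col4a1 and Col4a2: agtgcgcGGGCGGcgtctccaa

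Most collagen chains were measurable in each tissue, and fewest in liver. In brain, 33 of 44 chains were well above background on every array, 3 on some and 8 on none. In kidney the numbers were 29, 6 and 9, and in liver 24, 1 and 19. The reported probes of 21 chains were well above background on all 8 arrays. Those of 3 chains were dim on all of them, namely Col4a6, a type IV chain known from smooth muscle and skin basement membranes, Col10a1 of growth plate cartilage, and Col28a1. Chains dim in brain but not in kidney were Col4a3, Col4a4, Col6a6, Col14a1 and Col15a1. No collagen spot was saturated.

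**Figure D1:**
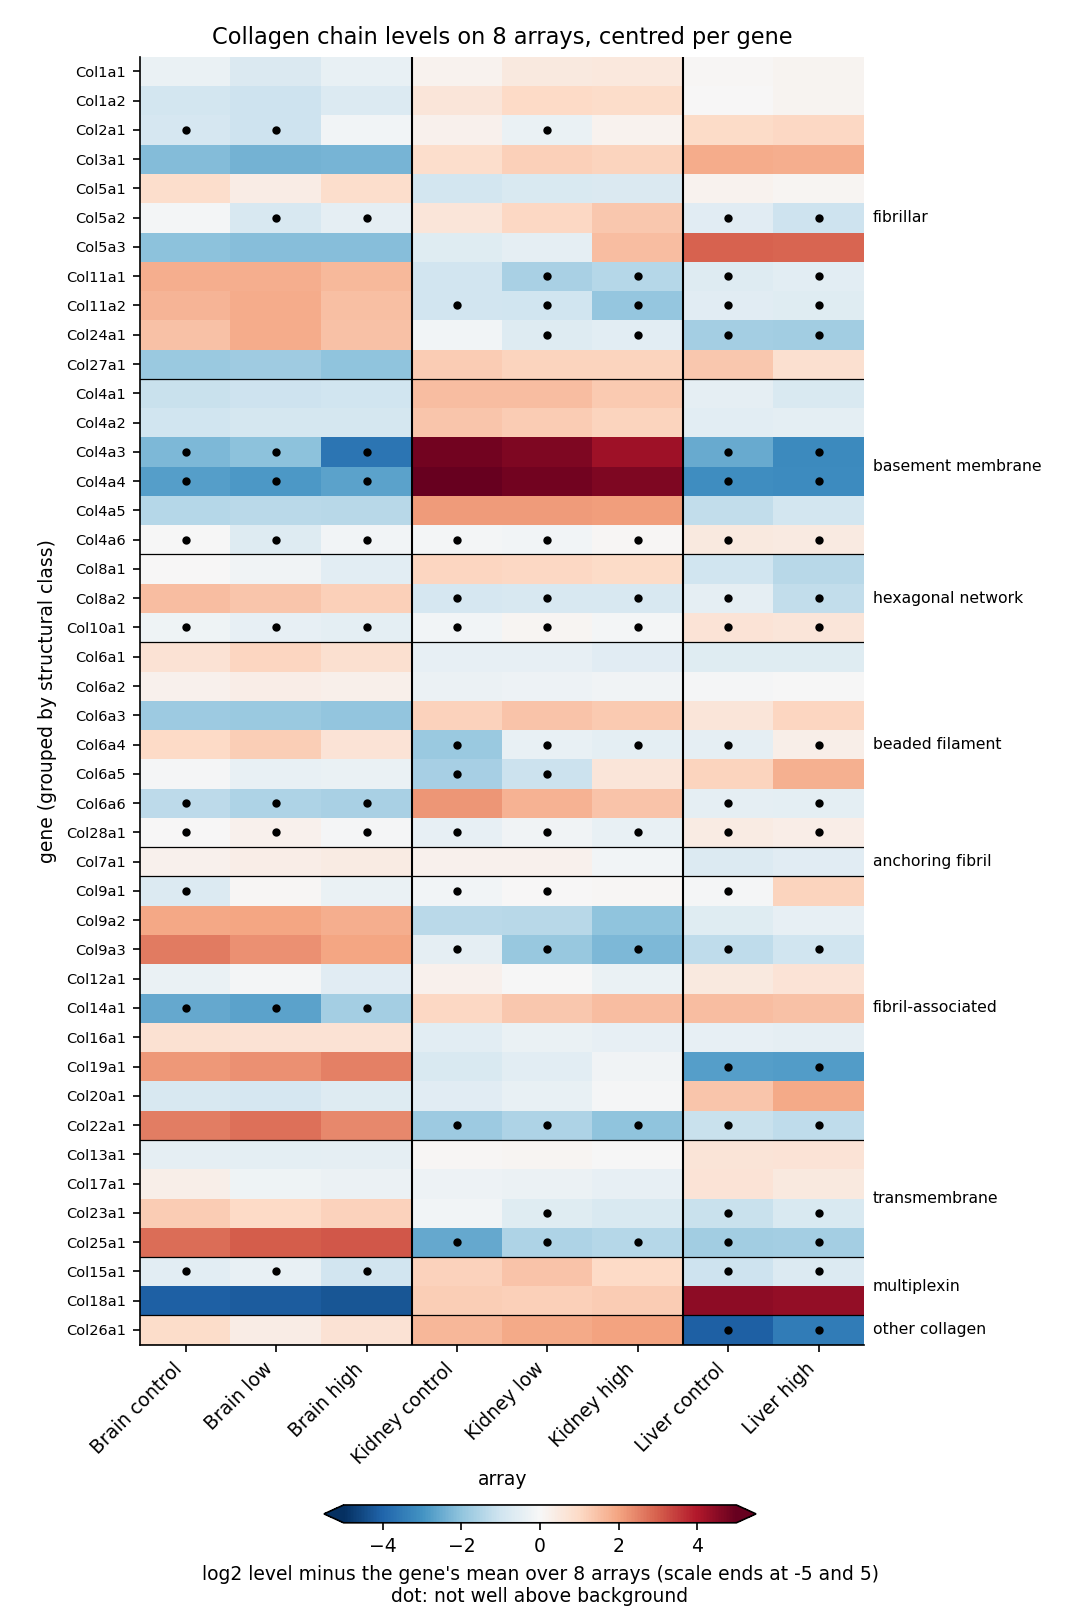
Log2 level of the reported probe of each of the 44 collagen chains (rows, grouped by structural class) on the 8 arrays (columns), minus the gene's own mean over the arrays, in colour; a dot marks an array where the probe was not well above background. The 3 tissues form blocks of their own colour, while the arrays of 1 tissue at different doses mostly look alike; Col5a3 and Col6a5 on the kidney high dose array differ from the other kidney arrays.

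These genes differed more between tissues than between doses of a tissue. For each of the 21 chains measured on all arrays, the range of the 3 tissue means was larger than the largest range between doses within a tissue. This held for 93.8% of the 17449 genes measured on all arrays. The median of the first range was 2.18 and that of the second 0.37, beside 1.22 and 0.25 over these genes. Tissues were tested with limma on all 37318 genes with a value on every array, with tissue and dose as terms, and a gene was called at an adjusted p under 0.05 and a difference of at least 1. This uses arrays of different doses as the replicates of a tissue, with 3 residual degrees of freedom, and if 1 animal gave all tissues of a dose, dose and animal are the same term. In whole tissue, fewer cells of a type and less RNA per cell cannot be told apart.

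Among the 21 chains measured on all 8 arrays, kidney was higher than brain for 10 and lower for 4, where 24.3% and 14.0% of 17449 such genes were called in these directions. Liver was higher than brain for 7 and lower for 3, against 33.7% and 15.5% of genes. Kidney was higher than liver for 4 and lower for 4, against 11.2% and 14.4% of genes. The collagens' median differences were 0.87, 0.53 and -0.02, beside 0.28, 0.53 and -0.22 over all such genes. The 10 chains higher in kidney than in brain stand above the background share, and the liver counts against brain near it. The 4 chains higher in kidney than in liver, Col4a1, Col4a2, Col4a5 and Col8a1, are 3 basement membrane chains and 1 hexagonal chain. Counting also chains that were dim in 1 of both tissues, kidney was higher than brain for 17 and lower for 14 of 39 (background 24.4% and 23.7%). On that count, liver was higher than brain for 10 and lower for 13 of 35 (30.5% and 26.6%), and kidney was higher than liver for 11 and lower for 5 of 31 (17.4% and 16.7%). A chain that entered through its bright tissue had to differ, so the second set of counts and each call on such a chain are a description only.

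**Figure D2:**
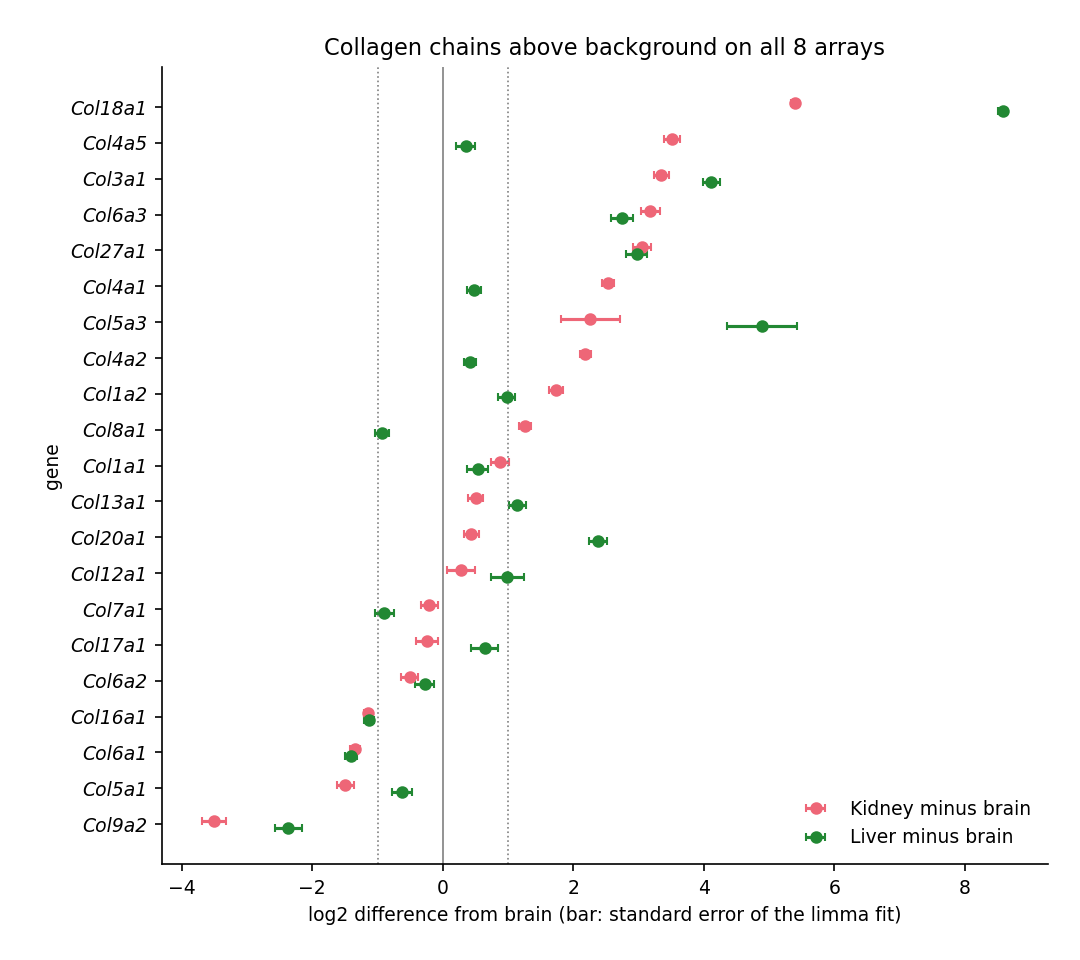
Log2 difference of kidney (red) and liver (green) from brain for the 21 collagen chains well above background on all 8 arrays, with the standard error of the limma fit as bars; both differences share the brain arrays, and dotted lines mark -1 and 1. Col4a1, Col4a2 and Col4a5 are high in kidney but within 1 of brain in liver, whereas Col3a1, Col5a3 and Col18a1 are higher than brain in both organs.

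The measurable basement membrane chains of type IV were higher in kidney than in brain and liver. Col4a1 and Col4a2, which form the network common to most basement membranes, came first. Col4a1 read -0.34, -0.27 and -0.23 in brain (control, low and high dose), with 2.32, 2.32 and 2.09 in kidney and 0.33 and 0.03 in liver (control and high dose). Col4a2 read -0.03, 0.08 and 0.06 in brain, with 2.36, 2.23 and 2.09 in kidney and 0.41 and 0.47 in liver. The kidney arrays lay above all others for both genes. Col4a1 was 2.53 ± 0.09 (SE of the limma fit) higher in kidney than in brain (limma, adjusted p = 1.3e-06) and 2.05 ± 0.10 higher than in liver. For Col4a2 the differences were 2.18 ± 0.08 and 1.77 ± 0.09. Liver and brain differed by 0.48 and 0.41, below the size needed for a call.

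Col4a3, Col4a4 and Col4a5 encode the chains that replace that network in the glomerular basement membrane, and mutations in them cause Alport syndrome. Col4a3 read 1.99, 1.82 and 1.40 in the kidney groups and was dim on all 5 other arrays. Col4a4 read 2.10, 1.89 and 1.74 in kidney and its reported probe was dim on the same 5 arrays. By these probes, both genes were well above background on the kidney arrays only. By the reported probes, Col4a4 was at least 128-fold higher in kidney than in brain and at least 59.7-fold higher than in liver. Col4a3 was at least 107-fold and 53.1-fold higher. The Col4a4 bound over brain does not hold for its second probe, which read -3.29 in brain control and 1.43 in kidney control. Col4a5, on the X chromosome, was also measurable elsewhere. It read -3.67, -3.58 and -3.63 in brain, with -0.11, -0.11 and -0.14 in kidney and -3.44 and -3.14 in liver. It was 3.51 ± 0.12 higher in kidney than in brain and 3.16 ± 0.15 higher than in liver (limma, adjusted p = 1.3e-06 and 1.0e-05). Of the 6 type IV chains on the array, 5 were thus higher in kidney than in both other organs, and Col4a6 had no signal to compare. Over all genes, 24.4% were higher in kidney than in brain and 17.4% higher than in liver. Col4a3 and Col4a4 entered this count through kidney only.

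**Figure D3:**
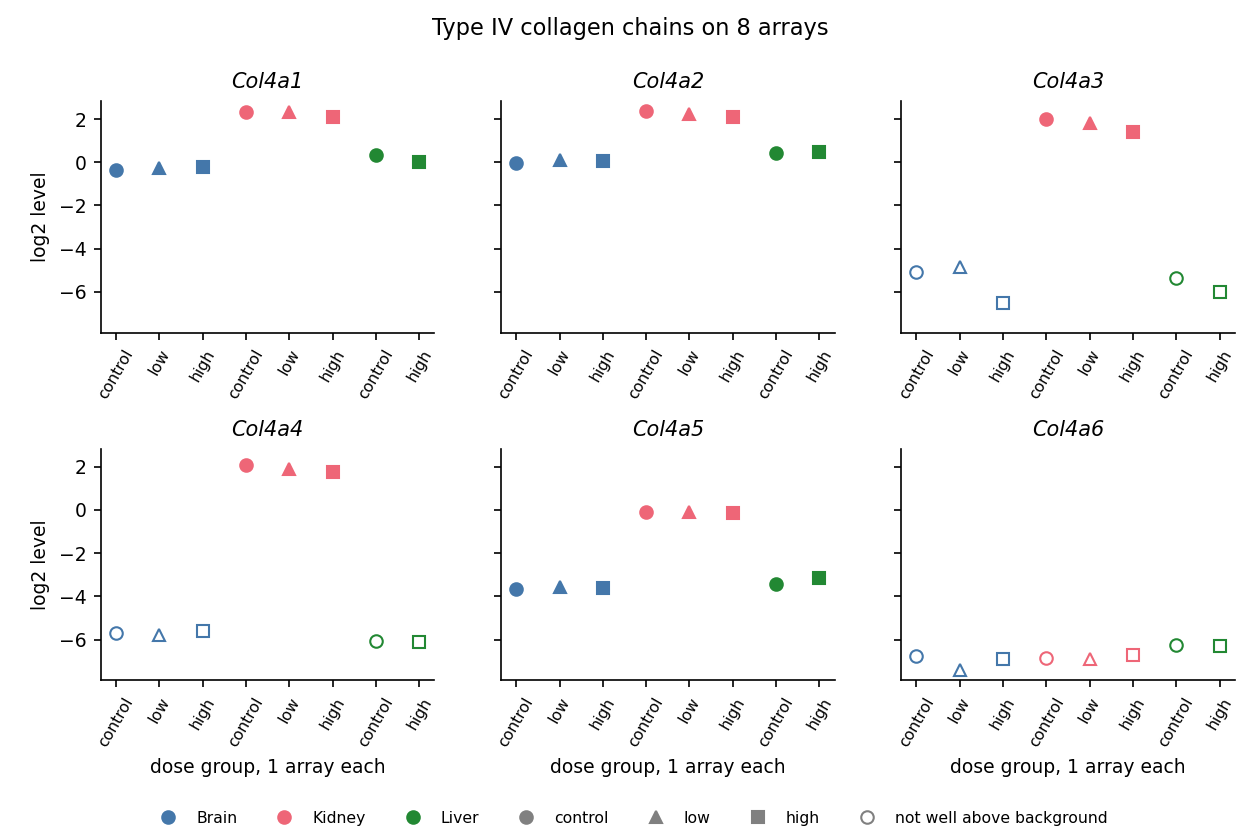
Log2 levels of the 6 type IV collagen chains on the 8 arrays, by tissue (colour) and dose (symbol), with open symbols where the probe was not well above background; each panel is another probe, so heights are to be compared within a panel. Kidney lies above brain and liver for 5 chains, and Col4a6 is open throughout.

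Glomerular cells are a known source of these chains in kidney, and which kidney cells gave these levels was not tested. Of the 6 podocyte markers, 4 were higher and 1 lower in kidney than in brain, the same counts held against liver, and all 6 were above background on each kidney array. Their summed linear level was 11.8 to 12.4 in kidney, 20.3 to 25.5 in brain and 2.30 to 3.61 in liver. This sum, on which the brightest probes weigh most, was thus highest in brain. The median level of the list was highest in kidney, at -1.47 to -1.30, with -3.95 to -3.49 in brain and -3.31 to -3.15 in liver. Nphs1, which encodes the slit diaphragm protein nephrin, was dim on all brain and liver arrays. Other basement membrane genes differed between the organs too. Of 15 laminin, nidogen, perlecan and agrin genes, all measurable, 8 were higher in kidney than in brain and none lower, and 10 were higher in kidney than in liver and 1 lower. Against brain, liver was higher for 4 and lower for 4. Over all genes, 24.4% were higher and 23.7% lower in kidney than in brain, 17.4% and 16.7% in kidney than in liver, and 30.5% and 26.6% in liver than in brain. Lama5, the laminin chain of the mature glomerular membrane, read 2.77 to 2.91 in kidney, -0.45 to -0.24 in brain and -0.68 to -0.44 in liver.

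Of the chains of types I and III, Col3a1 was called higher in kidney and liver than in brain, Col1a2 in kidney only, and Col1a1 in neither. Col3a1, the chain of type III fibrils in soft organs, read -2.97, -3.20 and -3.15 in brain, with 0.06, 0.35 and 0.30 in kidney and 1.03 and 0.98 in liver. The 3 tissues did not overlap. Col3a1 was 3.35 ± 0.11 higher in kidney and 4.12 ± 0.13 higher in liver than in brain (limma, adjusted p = 1.1e-06 and 8.7e-07), and the kidney minus liver difference of -0.77 was below the size for a call. Col1a2, a chain of type I collagen, read 1.04, 0.92 and 1.28 in brain, with 2.57, 2.97 and 2.88 in kidney and 2.01 and 2.10 in liver. It was 1.73 ± 0.11 higher in kidney than in brain (limma, adjusted p = 1.7e-05), and liver exceeded brain by 0.98. Its partner Col1a1 read -1.45, -1.82 and -1.50 in brain, with -0.92, -0.64 and -0.59 in kidney and -1.04 and -0.99 in liver. For Col1a1 the brain arrays were again lowest, but by the reported probe its differences from brain, 0.87 in kidney and 0.53 in liver, stayed under 1. In mean, its 3 measurable probes put kidney 0.87 to 1.03 and liver 0.45 to 0.66 above brain.

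The chains of type V, which set the width of type I fibrils, did not share a tissue pattern. Col5a3 read -2.48, -2.57 and -2.58 in brain, with -1.05, -0.89 and 1.09 in kidney and 2.51 and 2.49 in liver. It was 4.89 ± 0.54 higher in liver than in brain (limma, adjusted p = 0.00029). The kidney minus liver difference was -2.62 ± 0.54 (limma, adjusted p = 0.0082), a call lost without the liver control array (-2.10, adjusted p = 0.053). The high dose array stands apart within kidney, as described under dose. Col5a1 ran the other way, with a kidney minus brain difference of -1.50 ± 0.13 (limma, adjusted p = 9.2e-05). Col27a1, a fibrillar chain known from cartilage, was 3.05 ± 0.14 higher in kidney and 2.97 ± 0.16 higher in liver than in brain. The type XI chains and Col24a1 were higher in brain than in both organs. For Col11a1 the bound in brain over liver was 5.08-fold, and for Col11a2 the bounds were 6.46-fold over kidney and 4.12-fold over liver. Of 10 fibrillar chains that could be tested, kidney was higher than brain for 5 and lower for 4, beside 24.4% and 23.7% of all genes. Some of these chains entered through their bright tissue, so this count is a description.

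Markers of the cells that make interstitial collagen did not follow the same order. Of 7 measurable fibroblast markers, 2 were higher and 1 lower in kidney than in brain, and 2 were higher and 4 lower in liver than in brain, where 24.4% and 23.7%, and 30.5% and 26.6%, of all genes were called. The summed linear level of the fibroblast list was 18.6 to 19.5 in brain, 21.5 to 22.8 in kidney and 50.7 to 53.5 in liver. Its median level had another order, with -1.46 to -1.20 in brain, -0.47 to -0.24 in kidney and -1.65 to -1.42 in liver. Of 6 hepatic stellate cell markers, 5 were higher in liver than in brain and 4 higher in liver than in kidney, beside 30.5% and 16.7% of all genes. Lrat, the stellate cells' retinol-storing enzyme, was dim on all brain and kidney arrays. The part that the mix of cells has in the collagen differences was not tested.

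Type VI collagen is assembled from the products of Col6a1, Col6a2 and Col6a3, and their genes did not share a tissue pattern. Col6a1 read 1.61, 1.98 and 1.70 in brain, with 0.47, 0.48 and 0.32 in kidney and 0.28 and 0.29 in liver. Col6a2 read -2.36, -2.22 and -2.31 in brain, with -2.84, -2.83 and -2.75 in kidney and -2.62 and -2.56 in liver. Col6a3 read -3.39, -3.44 and -3.54 in brain, with -0.42, -0.15 and -0.26 in kidney and -0.97 and -0.52 in liver. Brain was thus highest for Col6a1 and lowest for Col6a3. Col6a1 differed from brain by -1.34 ± 0.08 in kidney and -1.41 ± 0.09 in liver (limma, adjusted p = 1.1e-05 and 1.8e-05). Col6a3 was higher than in brain by 3.18 ± 0.14 in kidney and 2.75 ± 0.16 in liver (limma, adjusted p = 3.2e-06 and 1.3e-05). Col6a2 differed from brain by -0.51 and -0.28, under the size for a call.

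The later members of the family, Col6a4, Col6a5 and Col6a6, stand side by side on chromosome 9 and can each take the place of Col6a3. Each was called in a different tissue. Col6a6 was well above background only in kidney, at -3.32, -3.81 and -4.12, at least 2.52-fold above brain and 1.18-fold above liver. Col6a4 was well above background only in brain, at least 1.60-fold above kidney. Col6a5 read -4.10, -4.41 and -4.36 in brain, was dim in kidney control and low dose, read -3.43 in kidney high dose, and -2.92 and -2.23 in liver. It was 1.59 ± 0.54 higher in liver than in brain (limma, adjusted p = 0.036), a call lost without the brain low dose, brain high dose, kidney low dose, liver control or liver high dose array. The kidney minus liver difference of Col6a5 was -2.03 ± 0.54 (limma, adjusted p = 0.019), a call lost without the liver control array (adjusted p = 0.10), without the liver high dose array (0.072), without the kidney control array (0.073) and with quantile normalization (0.057). Neither Col6a5 call thus held over all arrays, and the Col6a4 and Col6a6 calls were lost with normexp and quantile normalization. With Col6a5 dim in kidney control and low dose, its kidney minus liver value is not a measured size.

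Among the chains measured on all 8 arrays, the largest tissue difference belonged to Col18a1, whose protein releases the fragment endostatin and of which hepatocytes are a known source. Col18a1 read -1.45, -1.51 and -1.63 in brain, with 3.86, 3.82 and 3.93 in kidney and 7.10 and 7.02 in liver. The tissues were separated without overlap. It was 5.40 ± 0.06 higher in kidney than in brain, a 42.2-fold difference, and 8.58 ± 0.07 higher in liver than in brain, 383-fold (limma, adjusted p = 1.9e-08 and 1.5e-08). The kidney minus liver difference was -3.18 ± 0.07 (limma, adjusted p = 4.5e-07). The array reads Col18a1 by 1 probe at chr10:76515820-76515879 of mm9, so forms from its different start sites were not told apart. The other multiplexin, Col15a1, read -3.85, -3.58 and -4.03 in kidney and was dim in brain and liver. Kidney was at least 2.41-fold above brain for Col15a1 and at least 1.13-fold above liver, calls lost with normexp and quantile normalization.

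Of the 9 fibril-associated chains, 5 were called higher in brain than in kidney and than in liver, beside 23.7% and 26.6% of all genes. Some of these 5 were dim outside the brain. Col14a1 and Col20a1 were called higher in another organ. By their reported probes, Col9a1 and Col12a1 were called in no comparison. Among those higher in brain, Col22a1, known from tissue junctions, read -0.55, -0.35 and -0.68 there. Its reported probe was dim on the 5 other arrays, a bound of 18.5-fold over kidney and 11.1-fold over liver. Col9a3, a chain of the type IX collagen of cartilage, read -1.90, -2.20 and -2.53 in brain and was dim elsewhere, at least 5.73-fold over kidney and 3.44-fold over liver. Its partner Col9a2 read -0.29, -0.24 and -0.40 in brain, with -3.58, -3.64 and -4.23 in kidney and -2.83 and -2.64 in liver, and differed from brain by -3.50 ± 0.18 in kidney and -2.37 ± 0.21 in liver. Both type IX chains were lowest outside the brain. Col19a1 read -1.17, -1.03 and -0.82 in brain and -4.09, -3.84 and -3.50 in kidney, and was dim in liver. For Col19a1 the kidney minus brain difference was -2.80 ± 0.19, and brain was at least 7.92-fold above liver. Col16a1 differed from brain by -1.15 ± 0.06 in kidney and -1.13 ± 0.07 in liver, calls lost under median scaling.

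Of the chains brighter outside the brain, Col14a1, which binds the surface of type I fibrils, read -2.37, -2.07 and -1.89 in kidney and -1.86 and -1.96 in liver and was dim on the 3 brain arrays. That places kidney at least 7.65-fold and liver at least 8.79-fold above brain. Col20a1 read -2.65, -2.68 and -2.50 in brain, with -2.40, -2.21 and -1.90 in kidney and -0.45 and 0.04 in liver. Liver exceeded brain by 2.38 ± 0.14 for Col20a1, kidney exceeded brain by 0.44, under the size for a call, and the kidney minus liver difference was -1.94 ± 0.14 (limma, adjusted p = 1.2e-05 and 6.7e-05).

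Among the transmembrane chains, Col25a1, a neuronal collagen found with amyloid plaques, read -1.31, -1.09 and -0.98 in brain and was dim on all kidney and liver arrays. Brain was at least 12.2-fold above kidney and 7.29-fold above liver for Col25a1. Col23a1 was also higher in brain than in both organs. Col17a1, of epithelial hemidesmosomes, was not called between any tissues. Of the hexagonal lattice chains, Col8a1 was highest in kidney, 1.26 ± 0.09 above brain and 2.19 ± 0.11 above liver, and Col8a2 was well above background only in brain, at least 3.72-fold above kidney. Col7a1, the chain of anchoring fibrils, was within 1 in all 3 comparisons. Col26a1, which belongs to none of these classes, read -1.14, -1.67 and -1.33 in brain and -0.39, -0.17 and -0.05 in kidney and was dim in liver. Kidney exceeded liver by at least 13.8-fold and brain by 1.17 ± 0.20 for Col26a1.

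Neighbours in the genome did not always share a pattern. In RefSeq's order of protein-coding genes, 15 of the chains stand in 8 neighbouring pairs. The pairs Col4a1 and Col4a2, and Col4a3 and Col4a4, whose gene bodies overlap, had nearly the same pattern within each pair. Col4a5 was measured in all tissues, whereas its neighbour Col4a6 was dim on every array. Col3a1 was measured in all tissues and highest in liver, whereas its neighbour Col5a2 was well above background in all groups of kidney only. Col6a1 was called higher in brain. Its neighbour Col6a2 differed from brain in the same direction, by -0.51 in kidney and -0.28 in liver, under the size for a call.

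Probes of 1 gene mostly gave the same direction, with exceptions that limit single genes. Where several probes of a chain were above background on every array of both tissues, the tissue differences were within 1 of each other except for Col13a1 and Col26a1. Col13a1, a transmembrane chain, was 1.13 higher in liver than in brain by its reported probe and 2.85 by another. The kidney minus liver differences of those Col13a1 probes were -0.63 and -2.92. Of the 3 probes of Col26a1, the reported one and a second put kidney 1.17 and 1.31 above brain and were dim in liver. The third probe of Col26a1 put kidney 0.20 above brain and was above background in liver, at -3.35. The second probe of Col4a3 was dim on all 8 arrays, kidney included. The reported Col4a3 probe lies at chr1:82714546-82715399 of mm9, more bases than a probe has, and so reads across an intron. The second probe of Col4a4 gave 1.20 ± 0.28 (SD, n = 3) in kidney, was well above background on the brain control array too, at -3.29, and was dim on the 4 remaining arrays. The second probe of Col22a1 went against the reported one. It was dim on all brain and liver arrays and on kidney control, and well above background in kidney low and high dose, at -3.58 and -3.68. The second probe of Col9a1 was well above background on the 3 brain arrays, at -4.55, -2.67 and -4.66, and on no other. The second probe of Col11a2 read -4.40, -4.61 and -3.97 in brain, was well above background on 3 of the 5 other arrays, and put kidney -0.16 and liver 0.51 from brain in mean. With the mean of its probes, Col11a2 was no longer called in liver versus brain. Another probe of Col12a1 was well above background on all brain and kidney arrays and dim in liver. In mean it put liver -1.76 from brain and kidney 1.85 from liver, where the reported Col12a1 probe gave 0.92 and -0.64. Since the other probe was dim in liver, -1.76 and 1.85 are not measured sizes. Exon and UTR annotation of mm9 was not used here.

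The genes that process collagen also differed between tissues, in both directions. The single genes named from these lists, and Lama5, were chosen after their values were seen. Of 19 hydroxylation and folding genes, 8 were higher and 3 lower in kidney than in brain, and 4 were higher and 5 lower in liver than in brain. Beside these stand 24.4% higher and 23.7% lower of all genes in kidney, and 30.5% and 26.6% in liver. Serpinh1, the collagen chaperone of the endoplasmic reticulum, read 2.44 to 2.71 in kidney, 0.17 to 0.20 in liver and -0.61 to -0.29 in brain. P3h2, a prolyl 3-hydroxylase that acts on type IV collagen, read 2.44 to 2.60 in kidney and -3.49 to -3.36 in brain. Its relative P3h1 had the reverse order, 3.44 to 3.57 in brain and -0.81 to -0.73 in kidney. Of 5 measurable cross-linking genes, 4 were higher in kidney than in brain and none lower, and of 11 measurable collagen receptor genes 5 were higher and 3 lower, against the same 24.4% and 23.7%. Bmp1, the protease that removes the C-terminal propeptide of fibrillar chains, read 4.56 to 4.58 in liver, 2.50 to 2.63 in brain and -0.07 to 0.15 in kidney.

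With lead in the water, 1 of these genes differed from its control array by the size required. With 1 array a group there is no test within a tissue. A chain counted as higher or lower when it was well above background on both arrays, was at least 1 apart, and this gap exceeded 3 times the error that the scanner software gives for the pair of spots. In brain, none of 33 measurable chains passed at the low dose, where 0.745% of all genes did, and none of 33 at the high dose (0.452%). In kidney, none of 29 passed at the low dose (0.492%), and 1 of 31 at the high dose, where it was higher (1.66% of all genes in either direction and 1.12% higher). None of 24 passed in liver (0.803%). At such backgrounds less than 1 chain is due in each comparison. Both doses of a tissue share its control array.

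**Figure D4:**
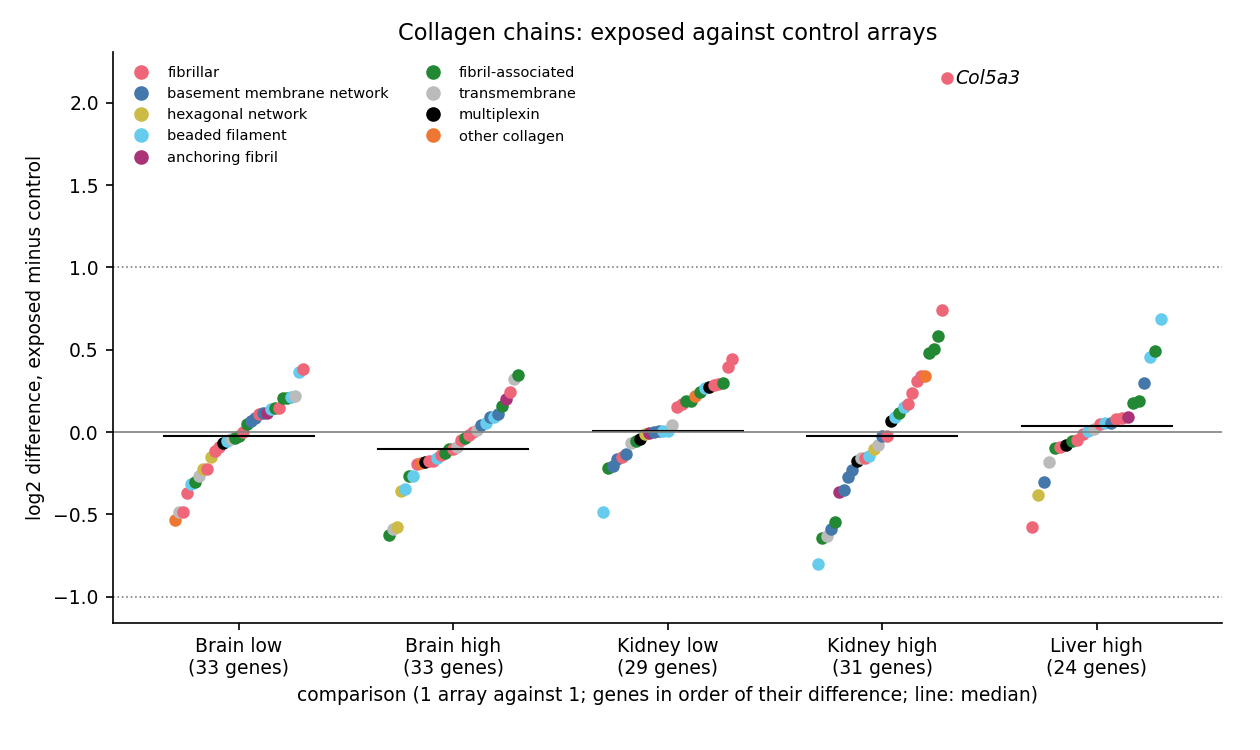
Log2 difference of the exposed from the control array for each measurable collagen chain, in order of size within each comparison and coloured by structural class; black lines are medians and dotted lines mark -1 and 1. All points lie between the dotted lines except Col5a3 in the kidney high dose comparison, at 2.15.

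The chain that passed was Col5a3 in kidney. Its levels were -1.05 (control), -0.89 (low) and 1.09 (high), so the control and low dose arrays were alike and the high dose array stood alone. The difference from control was 2.15, or 4.43-fold, with an array error of 0.21. The Col5a3 probe that gave this lies at chr9:20574592-20574651 of mm9, on the minus strand. A second probe was dim on the control and low dose arrays and well above background at the high dose, at -4.60. In brain that second probe was well above background in control, at -3.53, and dim at both doses. In liver the high dose differed from control by -0.01 for Col5a3, and in brain by -0.10. Col6a5 was the other chain with a bound of at least 2-fold. It was dim in kidney control and at the low dose and read -3.43 at the high dose, at least 2.66-fold above control. The 2 other Col6a5 probes were dim on these 3 arrays. Neither chain had a second kidney at the high dose to compare with.

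Markers of other tissues differed on the same array. Of the 8 liver markers, 5 could be measured on both kidney arrays, and 2 of these were higher at the high dose, Alb by 1.22 and Serpina1a by 3.28. Only 3 of the 5 read above control at all, with a median of 0.48 over the 5. Apoa1 was dim on all 3 kidney arrays. The summed linear level of the liver list was 229, 204 and 174 on the control, low and high dose kidney arrays, against 4824 to 4845 in liver. Both Col5a3 and Col6a5 were brighter in liver than in kidney. Col18a1 and Col20a1, also brighter in liver than in kidney, differed by 0.07 and 0.51 between kidney high dose and control. The part of liver RNA in these values was not tested.

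All 5 spermatid markers were also higher on the kidney high dose array, with a median of 3.09, and their summed level was 2.46, 1.09 and 19.3 over the control, low and high dose arrays. The 7 adipocyte markers had a median of -0.80 there, with Ucp1 lower at a difference of -1.42, and a summed level of 21.8, 17.6 and 14.2. The 6 macrophage markers had a median of 0.51, and none passed. Of 3 measurable urothelium markers 2 were higher, and of 4 adrenal markers 2 were lower. The part of these in the Col5a3 and Col6a5 values was not tested.

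**Figure D5:**
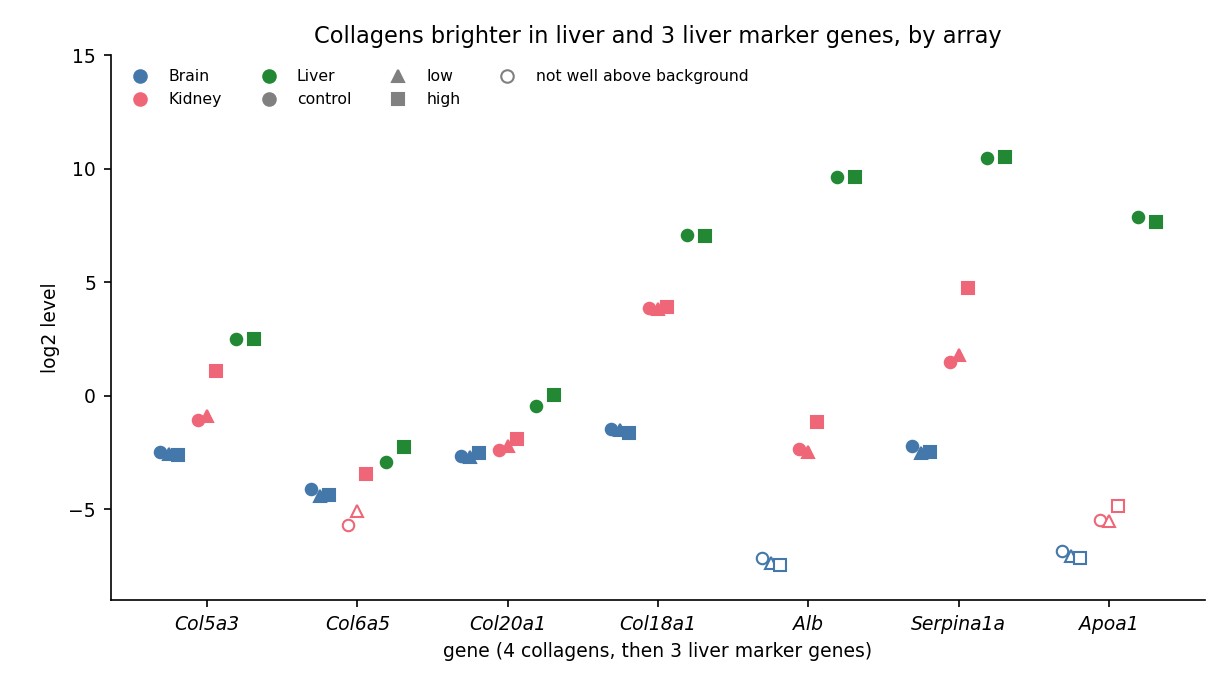
Log2 levels of 4 collagen chains brighter in liver than in kidney, and of 3 of the 8 listed liver markers, on all 8 arrays. Colour is tissue, symbol is dose, and open symbols mark a probe not well above background. Heights are to be compared within a gene. Of 5 liver markers measurable on kidney control and high dose, 3 read above control. On the kidney high dose array Col5a3, Col6a5, Alb and Serpina1a lie more than 1 above kidney control, Col20a1 0.51 above it and Col18a1 0.07.

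The kidney differences under that threshold are given by class as a description, with no test of a difference between classes. All 5 measurable type IV chains read lower at the high dose than in control, with differences of -0.03 for Col4a5, -0.23 for Col4a1, -0.27 for Col4a2, -0.35 for Col4a4 and -0.59 for Col4a3. At the low dose, Col4a5 and Col4a1 differed by 0.00, and the others by -0.13 to -0.21. The podocyte list, 6 of 6 measurable, had medians of -0.07 (low) and -0.12 (high), with 1 of 6 above control at each, and a summed level of 12.4, 12.2 and 11.8 over control, low and high dose. Medullary tubule markers, all 6 measurable, read above control for 5 at 100 mg/L and for 6 at 1000 mg/L, with medians of 0.07 and 0.23 and summed levels of 218, 232 and 280. The endothelial list read above control for 8 of 8 and 2 of 8, with medians of 0.05 and -0.05 and summed levels of 20.9, 21.5 and 19.8. The part of these cell mixtures in the type IV values was not tested.

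Of the fibrillar chains, 6 of 7 measurable ones were brighter than in control at 100 mg/L and 6 of 8 at 1000 mg/L. Col1a1 exceeded control by 0.28 and 0.34 at the low and the high dose, Col1a2 by 0.40 and 0.31, Col3a1 by 0.29 and 0.24, and Col5a2 by 0.44 and 0.74. Since both differences use 1 control array, they are not independent. Over all genes, 47.8% and 44.0% read above control, with medians of -0.01 and -0.03. On the low dose kidney array, 3 of 3 measurable urothelium markers were higher, with a median of 1.13, and 2 of 3 measurable adrenal markers lower, with a median of -2.79 (Cyp21a1 by -3.70 and Star by -2.79). The adipocyte marker Cidea was lower there, at -2.11, as were 2 of 4 measurable spermatid markers. The part of these in the collagen values was not tested. The fibroblast list had medians of -0.01 and -0.10. The mural and smooth muscle list had medians of 0.10 and 0.00. Col6a6 was the chain furthest below control in kidney, at -0.49 and -0.80, and Col9a2 differed by -0.64 and Col23a1 by -0.63 at the high dose.

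In brain, 16 of 33 chains were brighter than in control at 100 mg/L (49.5% of all genes) and 11 of 33 at 1000 mg/L (49.1%), with medians of -0.02 and -0.10. The furthest below control at the high dose were Col9a3 (-0.63), Col17a1 (-0.59) and Col8a1 (-0.58). At the low dose Col26a1 differed by -0.53, Col17a1 by -0.49, Col5a1 by -0.48 and Col1a1 by -0.37. Furthest above were Col24a1 by 0.38 and Col6a1 by 0.36 at the low dose and Col19a1 by 0.35 at the high dose. The brain pieces differed in their regional markers. At the low dose 7 of 7 striatum markers were higher and 4 of 6 hippocampus markers lower, and the 7 meninges markers had a median of -0.25, with summed levels of 194, 164 and 229 over control, low and high dose. At the high dose 5 of 7 measurable choroid plexus markers (8 listed) were lower, and 4 of 4 measurable spermatid markers higher. The choroid plexus list had a median of -1.62 and summed levels of 5.19, 4.21 and 1.79 over control, low and high dose. The pituitary list, whose summed levels were 2.44, 0.917 and 0.854, had 1 of 2 measurable markers lower at 100 mg/L and 2 of 3 at 1000 mg/L. Pomc differed by -1.55 and -1.65 there, and Prl by -3.54 at 1000 mg/L. The part of these in the brain collagen values was not tested.

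In liver, 14 of 24 chains read above control at the high dose, where 46.1% of all genes did, with a median of 0.03. The range ran from Col27a1, which read -0.67 in control and -1.25 at the high dose, to Col6a5, which read -2.92 and -2.23. All 4 measurable beaded filament chains read above control, by 0.01 for Col6a1, 0.06 for Col6a2, 0.45 for Col6a3 and 0.69 for Col6a5. By their reported probes, type I and III chains were within 0.09 of control. The 3 measurable probes of Col1a1 ranged from -0.37 to 0.05. The hepatic stellate cell list had a median of 0.02.

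A dose effect common to the tissues was tested with limma over the 21 chains above background on all 8 arrays. None was called for the high dose or the low dose, where 0.00% of 17449 genes were called for either. By unadjusted p, 2 chains passed 0.05 for the high dose, Col8a1 with -0.35 and Col20a1 with 0.38 (unadjusted p = 0.0093 and 0.017, limma adjusted p = 0.85 for both), where 6.01% of all genes did. For the low dose none did, against 2.02% of all genes. Col8a1 read below control in all 5 comparisons. Its differences were -0.23 and -0.58 in brain, -0.01 and -0.11 in kidney, and -0.38 in liver.

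The genes that make, modify and bind collagen showed little more with dose. None of the measurable genes for hydroxylation and folding, secretion and propeptide removal, cross-linking, fibril regulation, receptors, degradation or TGF-beta and fibrosis signalling passed the size rule in any of the 5 comparisons. Their group medians lay between -0.15 (fibril regulators, brain low dose) and 0.21 (degradation and inhibitors, kidney low dose). Among 15 other basement membrane genes, 2 were higher at the high dose in kidney, Lama3 by 1.12 and Lamb3 by 1.29, and Lamb3 was higher by 1.11 at the low dose in brain. Lama3 and Lamb3 encode chains of laminin-332, an epithelial laminin.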

How the data were processed

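The members and lists were chosen with earlier results of these data known. Per the labels, RNA came from small tissue pieces and was labelled with Cy3 for 8 one-colour Agilent arrays on 1 slide. The authors deposited scanner files whose processed intensity was background-subtracted by the scanner software (Feature Extraction, version 12.0.3.1 in the submitters' processing notes), per the file headers. A value table for the series, also deposited, holds intensity, equal to that signal over the array's 75th percentile of all spots on a linear scale, with column medians of 0.112, 0.113, 0.114, 0.0940, 0.0905, 0.0936, 0.0915 and 0.0918 in the order brain, kidney, liver and control, low, high. The other deposited columns are flags of 0 or 1, per the file headers, and errors of that signal.

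Control spots and spots flagged as not uniform or outlying were left out, log2 spots of a probe were averaged, and the array's 75th percentile was subtracted. Where a gene has several probes, the one brightest on average over the arrays was reported. Names were updated through RefSeq accessions (GRCm38.p6, names and gene order only), which matched 67 of 91 collagen probes and renamed none. Probe positions are mm9. A bound sets the bright group's mean against, on each dim array, the higher of the lowest signal well above background and the probe's own. Tissue and dose were fitted with limma 3.58.1 (R 4.3.3, trend, Benjamini-Hochberg over all genes), and calls needed the probe well above background on every array of 1 tissue. In simulated data for kidney versus brain over 37318 genes, 100 genes were changed by 1 and 100 by 2. By adjusted p alone, the fit found 46.0% and 88.0% of these, with 8 false calls. The rules on size and background were not applied there. In the real fit 20958 genes had an adjusted p under 0.05, so these rates are not those of the calls. Every chain past the size rule or bound, the 4 largest calls per direction and tissue contrast, a fixed set of representatives and genes with discordant probes are named, others by range. Alternatives were normexp with offset 50 and quantile normalization, median and quantile scaling, the deposited table, the mean of probes, filters on dim probes, no intensity trend, dose left out and each array left out. The number of arrays limits the precision, and p-values measure only the spread between these arrays.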

Additional observations from a re-analysis of the deposited data

How the results depend on the processing

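No paired analysis was possible because each group holds 1 sample and the labels tie none to an animal. Dose is a term of the tissue fit in its place. Kidney versus brain gave 31 called chains, liver versus brain 23 and kidney versus liver 16, and with dose left out also 31, 23 and 16. Leaving out each array in turn gave 30 to 32, 23 to 24 and 13 to 16, and 0 to 0 for the dose effects over tissues. With only genes above background on all 8 arrays the calls were 14, 10 and 8, since only 21 chains were tested. With normexp and quantile normalization kidney versus liver gave 10, and calls on chains dim in 1 tissue were lost in all 3 comparisons, among them Col6a6, Col8a2, Col15a1, Col23a1 and Col24a1. It also lost Col13a1 in liver versus brain and Col9a2 in kidney versus liver, both above background on all 8 arrays. Col6a5 was lost in both comparisons with liver. Besides the Col5a3 and Col6a5 calls named above, leaving out an array lost Col5a2 (brain low, kidney low or liver high dose) and Col9a2 in kidney versus liver (kidney or liver high dose). Median scaling raised the median difference of all genes from 0.13 to 0.43 in kidney versus brain and from 0.28 to 0.60 in liver versus brain. It turned no called chain and lost Col16a1 in both. No called chain changed direction under the settings tried, except Col16a1 in liver versus brain with the mean of probes, where its 2 other probes were dim on all arrays.

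The size rule was less stable under the mean of probes, which mixes in probes dim on 1 array. It passed 2 chains in brain at the low dose (Col5a3 by -1.53 and Col8a2 by 1.46), 1 at the high dose (Col5a3 by -1.31) and 3 in kidney at the high dose (Col5a3 by 1.51, Col15a1 by -1.13 and Col17a1 by 1.64), and put 17 of 34 chains above control in brain at the high dose. Without the filter on dim probes, 2 passed in kidney at the high dose (Col6a5 by 2.23 beside Col5a3), and 22 chains read above control there and 22 in liver. A stricter filter left 8 above control in liver, of 17. Col5a3 passed in kidney at the high dose under every setting, at 1.51 to 2.16.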
